A study of Mus musculus with 8 samples.

Results

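The Reg genes encode a family of small secreted C-type lectins, named after regenerating pancreatic islets, where they were described. All 7 members looked for (Reg1, Reg2, Reg3a, Reg3b, Reg3d, Reg3g and Reg4) were found by symbol among the 23366 genes of the expression table. They were measured in beta cells sorted by flow from the pancreas of NOD mice aged 8 to 10 weeks, an inbred strain with spontaneous autoimmune diabetes. The labels distinguish a bottom and a top population, with 4 libraries each of about 1000 cells, and name no further treatment or genotype. Bottom 1, bottom 2, top 1 and top 2 belong to batch 1, and bottom 3, bottom 4, top 3 and top 4 to batch 2. The labels do not tell whether separate animals gave the libraries, so every p-value here refers to the spread among these 8 libraries, part of which may be technical.

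In the mouse, Reg1 and Reg2 are known from acinar cells, the digestive enzyme producers of the exocrine pancreas, and from stressed islets. Reg3b and Reg3g are antimicrobial lectins that the intestinal epithelium secretes after bacterial contact, through interleukin-22 and the transcription factor STAT3. Reg3d is related to a protein studied for islet neogenesis, and Reg4 marks secretory and hormone cells of the gut. Each library was therefore set beside acinar transcripts, represented by the carboxypeptidase Cpa1 and the trypsinogen Prss2, and beside Fabp2, the fatty acid binding protein of enterocytes.

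Total estimated counts ranged from 7256042 to 11262368 in bottom libraries and from 6657639 to 9366913 in top libraries. Summed beta cell markers stood at 38730 to 81377 counts scaled to a library total of 1000000 (counts per 1000000, CPM) in bottom and at 344077 to 505704 CPM in top, while delta cell markers stood at 33461 to 57848 CPM in bottom and at 2728 to 5332 CPM in top. Although both populations are labelled beta cells, the bottom libraries thus had lower beta cell and higher delta cell markers than any top library. In such bulk samples fewer cells of a type and less RNA per cell cannot be told apart. Libraries also stood apart in gut transcripts. The 26 intestinal epithelium genes summed to 36827, 8579, 93.6 and 50.3 CPM across bottom 1 to bottom 4, and to 2449, 211, 84.3 and 828 CPM across top 1 to top 4.

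All members except Reg4 lie on mouse chromosome 6, in the order Reg3b, Reg3d, Reg3a, Reg2, Reg1 and Reg3g, and Reg4 lies on chromosome 3. RefSeq promoters (build GRCm38.p6) matched all 7 symbols. The 250 bases before the start are shown for 4 members. Reg1, Reg3b and Reg3g were the most abundant members, and Reg2, next to Reg1, was listed at 0. Capitals mark TATAAA, the TATA box, CACCTG, an E box, and TTTCCC or its reverse complement, which together with CACCTG makes up the motif of the acinar factor PTF1. The sequences come from chr6:78425733-78425982 (plus strand), chr6:78404905-78405154 (plus strand), chr6:78370635-78370884 (plus strand) and chr6:78468875-78469124 (minus strand).
Reg1: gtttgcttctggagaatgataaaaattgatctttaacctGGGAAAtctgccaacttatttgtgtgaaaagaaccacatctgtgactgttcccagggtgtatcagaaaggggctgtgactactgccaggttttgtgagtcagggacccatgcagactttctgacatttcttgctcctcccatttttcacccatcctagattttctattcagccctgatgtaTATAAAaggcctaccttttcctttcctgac
Reg2: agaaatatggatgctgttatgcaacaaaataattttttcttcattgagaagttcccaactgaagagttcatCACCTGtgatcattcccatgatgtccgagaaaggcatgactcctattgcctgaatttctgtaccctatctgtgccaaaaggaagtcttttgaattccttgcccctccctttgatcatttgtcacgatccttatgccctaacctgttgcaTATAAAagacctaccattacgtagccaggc
Reg3b: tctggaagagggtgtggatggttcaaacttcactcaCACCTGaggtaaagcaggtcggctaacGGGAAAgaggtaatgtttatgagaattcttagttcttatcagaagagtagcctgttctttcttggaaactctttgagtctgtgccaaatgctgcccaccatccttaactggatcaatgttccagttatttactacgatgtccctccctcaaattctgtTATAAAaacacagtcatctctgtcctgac
Reg3g: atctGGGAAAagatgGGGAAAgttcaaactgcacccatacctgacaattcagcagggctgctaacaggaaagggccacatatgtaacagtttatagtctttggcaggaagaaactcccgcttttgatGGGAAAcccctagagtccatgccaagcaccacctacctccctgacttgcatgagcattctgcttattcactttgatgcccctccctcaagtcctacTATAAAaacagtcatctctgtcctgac
TATAAA begins at position -30 in Reg1 and Reg2, -29 in Reg3b and -27 in Reg3g, counted from the start at position 0. In the windows of 300 bases (250 before to 50 after the start), and with both strands searched, TATAAA was held by 4 of the 7 Reg promoters and by 13.6% of all 32851 promoters. CACCTG was held by 5 of 7, all but Reg1 and Reg3g, against 20.2% of all, and TTTCCC by Reg1, Reg3b, Reg3d and Reg3g, against 25.2%. The STAT motif TTCNNNGAA was held by Reg3b and Reg3d, against 8.3% of all, and its tighter form TTCCNGGAA by 0 of 7, against 1.15%. In Reg3d the TTCNNNGAA match overlaps a TTTCCC match. These matches describe letters in a C57BL/6J reference, not NOD sequence, and not binding sites.

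Reg1, a secreted lectin of exocrine pancreas and gut, was by far the most abundant member. It stood at 15401, 2673, 1.47 and 4.54 CPM across bottom 1 to bottom 4, and at 793, 53.9, 13.1 and 419 CPM across top 1 to top 4. Bottom libraries were both the highest (batch 1) and the lowest (batch 2), with all 4 top libraries between them. In bottom 1 Reg1 was the 5th most abundant of all genes by count and in bottom 2 the 21st. The lowest value, in bottom 3, rested on 14 of 7256042 counts.

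The means were 4520 ± 7362 CPM in bottom and 319.7 ± 365 CPM in top (SD, n = 4). The fit with batch as covariate gave a log2 fold change of -0.77 ± 5.28 (standard error, SE, in the edgeR fit, adjusted p = 0.979), so the sign of the fit was opposite to that of the means. It became 2.82 without bottom 3, 2.82 without bottom 4 and 1.55 without top 4, none past the adjusted threshold. The bottom mean was 893 CPM without bottom 1 and 3.01 CPM without bottom 1 and bottom 2. Within batch 1 the mean was 9037 CPM in bottom and 424 CPM in top, a log2 fold change of 4.38 ± 1.43 (SE in the edgeR fit, adjusted p = 0.343). Within batch 2 it was 3.01 CPM in bottom and 216 CPM in top, a log2 fold change of -6.14 ± 1.62 (SE in the edgeR fit, adjusted p = 0.274). In each batch the 2 bottom libraries lay on 1 side of the 2 top libraries, above them in batch 1 and below them in batch 2. The population by batch interaction of Reg1 was -10.57 on the log2 scale (edgeR unadjusted p = 0.00265, adjusted p = 0.499). No gene passed the adjusted threshold for that interaction among 11721 tested (0% called by edgeR), and 885 genes (7.55%) had an unadjusted p under 0.05. No other tool was run on the interaction.

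**Figure D1:**
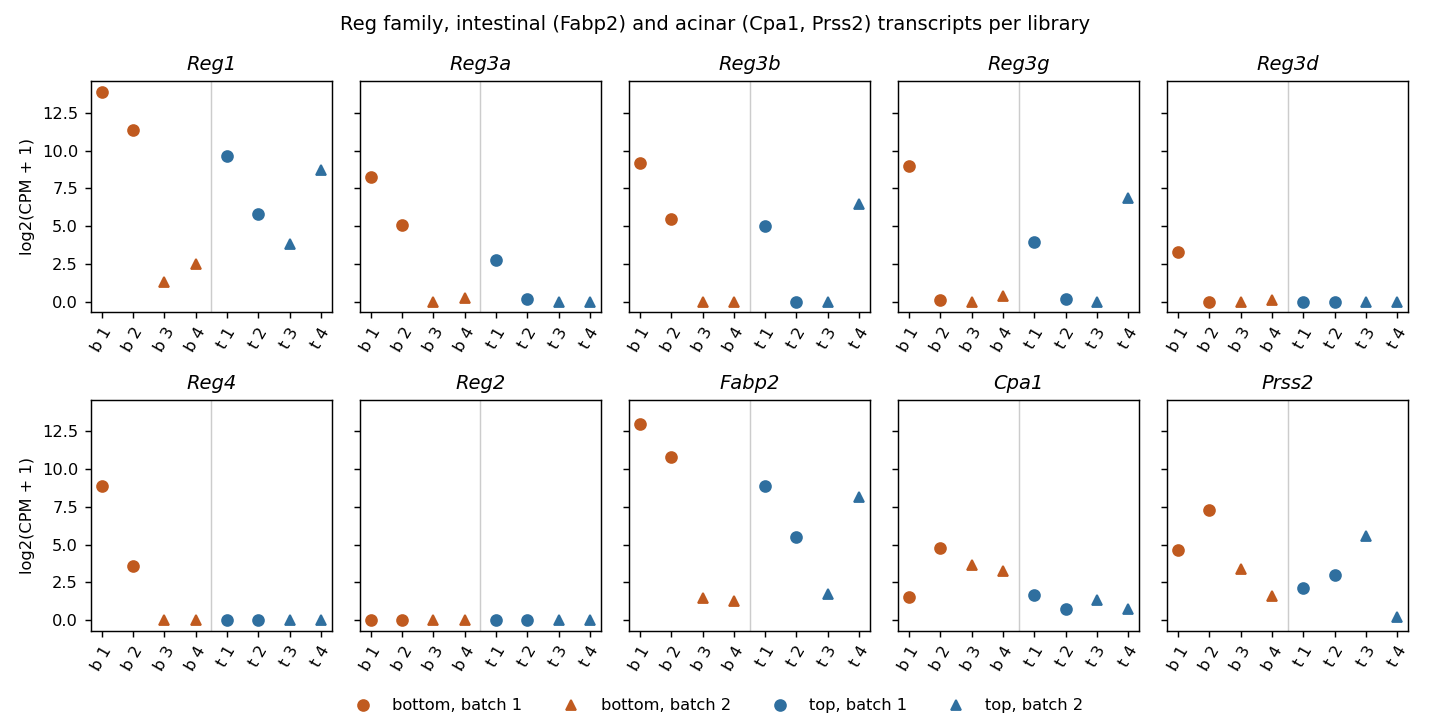
Level of each Reg member, of Fabp2 and of the acinar genes Cpa1 and Prss2 in each library, as log2(CPM + 1) on the vertical axis. Libraries b 1 to b 4 are bottom and t 1 to t 4 are top, with circles for batch 1 and triangles for batch 2. Reg1 and Fabp2 were highest in bottom 1 and bottom 2, lowest in bottom 3 and bottom 4, and spread between these in top, while Cpa1 and Prss2 followed another order.

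The antimicrobial members followed in fewer libraries. Reg3b, which acts against bacteria at the gut surface, stood at 575, 44.1, 0 and 0 CPM across bottom 1 to bottom 4, and at 31.4, 0, 0 and 88.3 CPM across top 1 to top 4. It was present in the 2 batch 1 bottom libraries, in top 1 and in top 4, and listed at 0 in the other four, and the populations overlapped. Its log2 fold change was -1.28 ± 7.38 (SE in the edgeR fit, adjusted p = 0.975), with means of 155 ± 281 CPM in bottom and 29.9 ± 41.6 CPM in top (SD, n = 4), again with opposite signs of fit and means. The fitted value became 2.68 without bottom 3, 2.68 without bottom 4 and 4.25 without top 4, and without bottom 1 the bottom mean was 14.7 CPM.

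Reg3g, whose protein binds peptidoglycan of Gram-positive bacteria, stood at 507, 0.0935, 0 and 0.278 CPM across bottom 1 to bottom 4. In top 1 to top 4 it stood at 14.2, 0.126, 0 and 117 CPM. Only bottom 1, top 1 and top 4 held more than 3 counts, so it did not pass the filter on low counts. Bottom 2 held 1 count of Reg3g beside 472 counts of Reg3b, whereas top 4 held 740 beside 556.

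Reg3a, the family member that shares the most bases with Reg3b, stood at 300.4, 32.8, 0 and 0.185 CPM across bottom 1 to bottom 4. It stood at 5.75, 0.126, 0 and 0 CPM across top 1 to top 4. Both batch 1 bottom libraries were above every top library, and bottom 3 was listed at 0. Top 4 was also listed at 0, although it held Reg3b and Reg3g.

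Reg3d stood at 8.96 CPM in bottom 1, on 82 counts, and had 1 count in bottom 4. It was listed at 0 in bottom 2, bottom 3 and all 4 top libraries. Against a floor of 3 counts over the top libraries, it was at least 20.0-fold higher in bottom, a bound that rests on bottom 1 alone, since the other bottom libraries held 1 count in all.

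Reg4, a marker of gut secretory and enteroendocrine cells, stood at 461 and 11.2 CPM across bottom 1 and bottom 2 and was listed at 0 in bottom 3, bottom 4 and all 4 top libraries. Against the same floor it was at least 1046-fold higher in bottom, and at least 37.5-fold higher without bottom 1. The second bound rests on bottom 2 alone, and in batch 2 both populations were at 0. Some goblet cell genes of the intestinal list, chosen after their values were seen, were read in the same libraries. Muc2, the gut mucin, stood at 59.5, 6.92, 0 and 0 CPM across bottom 1 to bottom 4 and was listed at 0 in all top libraries. Tff3, a trefoil peptide of goblet cells, stood at 413, 219, 0 and 0 CPM across bottom 1 to bottom 4 and at 3.6, 0.126, 0 and 1.11 CPM across top 1 to top 4. Agr2 of the same list stood at 132 CPM in bottom 1 but at 0.467 CPM in bottom 2. In top 1 and top 2 Agr2 stood at 1.15 and 0.502 CPM.

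Reg2, a product of mouse acinar cells and islets, had 0 counts in all 8 libraries. If its reads could be counted, a floor of 3 counts over the 69734733 counts of the series allows a level of up to 0.043 CPM. None of 15 housekeeping genes checked was listed at 0 in any library, but such abundant genes do not show that Reg2 reads were countable. In all, 5944 genes were at 0 in every library, among them the beta cell gene Mafa. Whether the 0 of Reg2 comes from the cells or from the annotation was not tested. Reads shared between relatives are divided by estimation, and the transcripts of Reg1 and Reg2 shared 78.9% of 674 aligned bases, the highest share among the 21 member pairs, with no identical run over 19 bases. Reg3a and Reg3b shared 75.5%, and Reg3b and Reg3g 74.4% with an identical run of up to 35 bases. How many reads these relatives shared was not measured, so their separate levels may be less certain than their sums.

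Summed over the family, Reg counts made up 1.69%, 0.262%, 0.000193% and 0.000628% of the counts in bottom 1 to bottom 4. They made up 0.0752%, 0.0046%, 0.00114% and 0.0591% in top 1 to top 4. The exact binomial 95% interval was 1.68% to 1.7% in bottom 1 and 0.000105% to 0.000324% in bottom 3, and covers counting error only. Per kilobase of transcript, the levels in bottom 1 were 20027 CPM for Reg1, 734 for Reg3b, 657 for Reg3g, 452 for Reg4, 364 for Reg3a and 11.5 for Reg3d, beside 8217 for Fabp2.

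The make-up of the Reg counts differed between libraries. Reg1 took 89.3% of them in bottom 1 and 96.8% in bottom 2, against 93.9% in top 1 and 99.5% in top 2. In top 4 it took 67.0% (exact binomial 95% interval 65.5% to 68.5%), beside 18.8% for Reg3g and 14.1% for Reg3b. Among the 5 libraries with over 400 Reg counts, top 4 thus held the highest shares of Reg3b and Reg3g. Bottom 3, with 14 Reg counts, bottom 4, with 55, and top 3, with 106, were shallow in these genes, so their make-up is less certain. The exact binomial 95% interval of the Reg1 share was 76.8% to 100% in bottom 3 and 77.8% to 95.9% in bottom 4. In top 3 it was 96.6% to 100%.

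**Figure D2:**
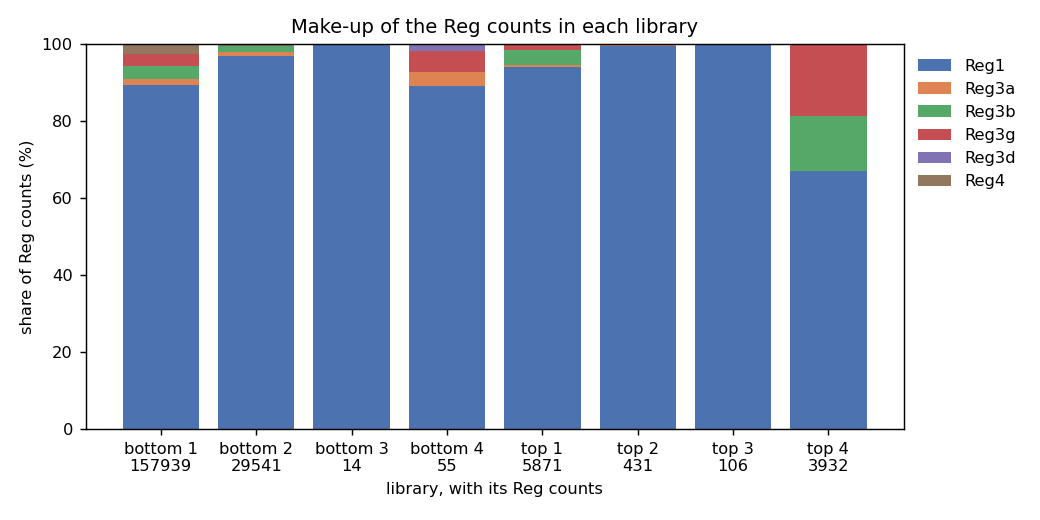
Share of each library's Reg counts, in percent, that each member took, with the number of Reg counts under the library name. Reg1 filled 89.3% and 96.8% of the bar in bottom 1 and bottom 2, against 93.9% in top 1 and 67.0% in top 4, where Reg3g and Reg3b filled the rest.

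Across libraries, Reg1 moved with Fabp2. Fabp2 stood at 7929, 1780, 1.79 and 1.39 CPM across bottom 1 to bottom 4 and at 461, 43.9, 2.35 and 278 CPM across top 1 to top 4. Over 8 libraries Pearson's r between the log2(CPM + 1) levels of Reg1 and Fabp2 was 0.989 (exact permutation p = 4.96e-05, adjusted 0.000595). Spearman's rho was 0.976 (exact permutation p = 0.000397, adjusted 0.00476), and without bottom 1 and bottom 4, the libraries farthest from the median of Fabp2, r was 0.981. In all 12 relations were computed, between 4 members and 3 genes, and the 4 libraries of a batch are too few for a separate r. With levels centred on their batch mean and libraries permuted only within their batch (576 exact permutations), r was 0.978 for Reg1 and Fabp2 (exact permutation p = 0.00347, adjusted 0.0417). In batch 1 Reg1 and Fabp2 had the same order, bottom 1, bottom 2, top 1 and top 2. In batch 2 top 4 led in both, and the other three libraries stood at 1.47 to 13.1 CPM of Reg1 and 1.39 to 2.35 CPM of Fabp2. Levels from 1 library share its depth and its mixture of cells.

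The ratio of Reg1 to Fabp2 CPM was 1.94, 1.5, 0.824 and 3.27 in bottom 1 to bottom 4 and 1.72, 1.23, 5.58 and 1.51 in top 1 to top 4. It lay between 1.23 and 1.94 in the 5 libraries with at least 40 CPM of Fabp2, 2 bottom and 3 top. In bottom 3, bottom 4 and top 3 both genes rested on few counts, with exact 95% intervals of 0.376 to 1.78, 1.8 to 6.27 and 3.4 to 9.63. The mean log2 ratio was 0.74 ± 0.83 in bottom and 1.04 ± 0.98 in top (SD, n = 4), a difference of -0.29 (two-sided exact permutation p = 0.657, where the smallest possible is 0.0286). Fabp2 itself had a log2 fold change of -0.92 ± 5.36 (SE in the edgeR fit, adjusted p = 0.976) and an interaction with batch of -10.72 (edgeR adjusted p = 0.499).

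Reg3b and Fabp2 had an r of 0.929 (exact permutation p = 0.00238, adjusted 0.00952) and a rho of 0.862 (exact permutation p = 0.0119, adjusted 0.0714). Reg3a and Fabp2 had an r of 0.839 (exact permutation p = 0.00208, adjusted 0.00952) and a rho of 0.683 (exact permutation p = 0.075, adjusted 0.3). Neither relation passed within batches, where the batch-centred r was 0.984 for Reg3b (exact permutation p = 0.0104, adjusted 0.0625) and 0.671 for Reg3a (exact permutation p = 0.0729, adjusted 0.219). With a pseudocount of 0.1 Reg3a and Fabp2 also missed the threshold (adjusted exact permutation p = 0.0583). For Reg3g and Fabp2 r was 0.698 (exact permutation p = 0.055, adjusted 0.165) and rho 0.539 (exact permutation p = 0.176, adjusted 0.501), and the batch-centred r was 0.826 (exact permutation p = 0.0417, adjusted 0.167). Without bottom 1 and bottom 4 the r with Fabp2 was 0.876 for Reg3b, 0.765 for Reg3a and 0.454 for Reg3g.

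**Figure D3:**
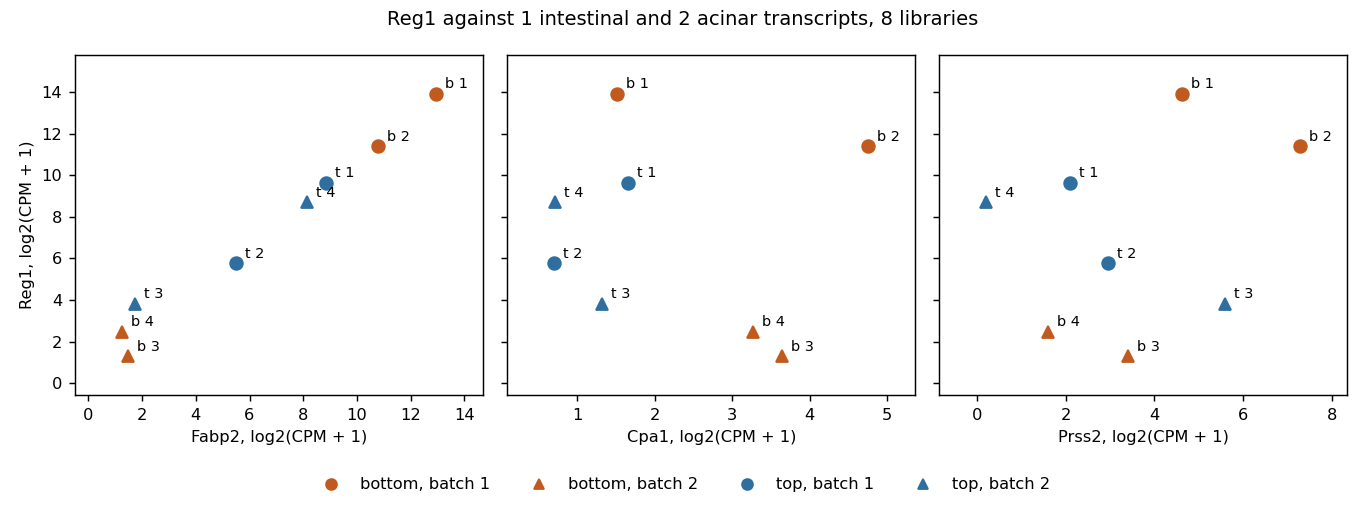
Level of Reg1 on the vertical axis against Fabp2, Cpa1 and Prss2 on the horizontal axes, all as log2(CPM + 1), with 1 point per library, b for bottom and t for top. The points lie along a line for Fabp2 (r = 0.989) and show r of -0.12 for Cpa1 and 0.25 for Prss2.

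The acinar transcripts did not follow this order. Cpa1 stood at 1.86, 26.0, 11.5 and 8.62 CPM across bottom 1 to bottom 4 and at 2.16, 0.628, 1.48 and 0.635 CPM across top 1 to top 4. It was thus lower in bottom 1, the library with the most Reg1, than in bottom 3, the library with the least. Prss2 stood at 23.6, 155, 9.59 and 2.04 CPM across bottom 1 to bottom 4 and at 3.31, 6.78, 47.2 and 0.159 CPM across top 1 to top 4. Top 3 had the highest Prss2 of the top libraries and the lowest Reg1 of them. The r of Reg1 was -0.12 with Cpa1 (exact permutation p = 0.766, adjusted 0.888, rho -0.05, exact permutation p = 0.935, adjusted 0.987). With Prss2 it was 0.25 (exact permutation p = 0.541, adjusted 0.812, rho 0.26, exact permutation p = 0.536, adjusted 0.715). Leaving out the farthest libraries gave -0.37 without bottom 2 and bottom 3 for Cpa1, and 0.18 without bottom 2 and top 4 for Prss2. None of the 8 relations of Reg1, Reg3a, Reg3b and Reg3g with Cpa1 or Prss2 passed, with r from -0.47 to 0.49 and adjusted exact permutation p from 0.468 to 0.888, and none passed within batches.

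The 31 acinar genes summed to 1683, 3042, 567 and 399 CPM across bottom 1 to bottom 4 and to 144, 96.2, 456 and 73.2 CPM across top 1 to top 4. The ratio of Reg1 to that sum was 9.15, 0.879, 0.0026 and 0.0114 in bottom 1 to bottom 4 and 5.51, 0.56, 0.0287 and 5.72 in top 1 to top 4. It varied far more between libraries than the ratio to Fabp2, which is a single gene and not a list. The ratio of Reg1 to the summed intestinal list ran from 0.0157 in bottom 3 to 0.505 in top 4. Zg16 and Spink3 of the acinar list are also gut transcripts. Without them the acinar sum of bottom 1 was 578 CPM, and the ratio of Reg1 to that sum was 26.6. Of the acinar list, 23 genes were tested, all with positive log2 fold changes and a median of 2.1, beside a median of 0.0033 over all tested genes, of which 50.1% were positive. The elastase Cela1 stood at 234, 449, 116 and 84.4 CPM across bottom 1 to bottom 4 and at 15.5, 11.2, 52.6 and 22.5 CPM across top 1 to top 4 (log2 fold change 3.04 ± 0.75 SE in the edgeR fit, adjusted p = 0.154). Zg16, a secretory granule protein, stood at 750.2, 475, 3.05 and 0.834 CPM across bottom 1 to bottom 4 and at 7.05, 1.13, 5.07 and 2.38 CPM across top 1 to top 4, with its highest levels in the same 2 libraries as Fabp2. Prss1 and the acinar regulator Ptf1a were listed at 0 in all libraries. Of the intestinal list, 18 genes were tested and 0 called, beside 0.444% of all tested genes. Of the 18, 11 were positive, at a median log2 fold change of 0.40. Fabp1, a second fatty acid binding protein, stood at 9796, 2336, 0.632 and 0.741 CPM across bottom 1 to bottom 4 and at 576, 47.6, 0.618 and 253 CPM across top 1 to top 4. The apolipoprotein Apoa1 stood at 7125, 1591, 0.632 and 0.556 CPM across bottom 1 to bottom 4 and at 483, 28.6, 1.24 and 75.3 CPM across top 1 to top 4. Like Reg1, both were highest in bottom 1, bottom 2, top 1 and top 4. Both were also lowest in bottom 3, bottom 4 and top 3, but in another order than Reg1. Of the 26 intestinal genes, 25 peaked in bottom 1, as did all 6 Reg members with a count. Of the 29 acinar genes with a count, 21 peaked in bottom 2 and 2 in bottom 1. The share of all genes that peaked in each library was not counted, so these counts have no yardstick. In batch 2 both bottom libraries lay below both top libraries for 6 of 26 intestinal genes, 1 of 7 Reg members and 1 of 31 acinar genes. They lay above both top libraries for 1, 0 and 5 of these, respectively. The share of all genes in either order was not counted, so these counts have no yardstick either. The part of gut or acinar cells in the Reg levels was not tested.

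The genes most like Reg1 over 8 libraries, among those tested, were the cytochrome P450 gene Cyp2d26 (r = 0.993), Fabp2 (0.989), the intestinal alkaline phosphatase Alpi (0.989), the apolipoprotein Apoc2 (0.987) and the gut galectin Lgals4 (0.986). Cyp2d26 stood at 294, 88.2, 0 and 0 CPM across bottom 1 to bottom 4 and at 28.9, 5.27, 1.11 and 38.4 CPM across top 1 to top 4. The genes most like Reg3b were the sulfate transporter Slc13a1 (r = 0.999), the glutathione transferase Gsta1 (0.99), Gm5485 (0.984), the phosphatase inhibitor subunit Ppp1r14d (0.976) and the calcium binding protein S100g (0.976). S100g, which serves calcium uptake in the gut, stood at 652, 149, 0 and 0 CPM across bottom 1 to bottom 4 and at 23.7, 2.26, 0.742 and 195 CPM across top 1 to top 4. By likeness to Reg1, Prss2 ranked 3475th and Cpa1 6529th of the tested genes outside the family.

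In the test across all genes, 2 of the 7 members, Reg1 and Reg3b, passed the filter on low counts, and 0 were called. edgeR called 52 of 11721 genes (0.444%, of which 0.282% higher and 0.162% lower in bottom), and neither member had an unadjusted p under 0.05, as 1202 genes did (10.3%). The libraries of the populations overlapped for both, while they did not overlap for 7.22% of all tested genes. limma-trend also called 0 of the 2, beside 1.17% of its genes. With no filter, edgeR called Reg3a (log2 fold change 5.68 ± 1.26 SE in the edgeR fit, adjusted p = 0.0299) and Reg4 (12.90 ± 1.93 SE in the edgeR fit, adjusted p = 0.00361) of 6 members with a count, beside 1.17% of 17392 genes. The fitted fold of Reg4 against libraries at 0 depends on the prior count and is no bound. DESeq2 called Reg3a (log2 fold change 4.61 ± 1.37 SE in the DESeq2 fit, adjusted p = 0.0187), beside 6.04% of its genes, and gave Reg4 an adjusted p of 0.257. Reg3a and Reg4 passed there on the batch 1 bottom libraries, since bottom 3 and bottom 4 together held 2 counts of Reg3a and 0 of Reg4. Without bottom 1 and bottom 2, edgeR tested Reg1, Reg3b and Reg3g and called 0 of the 3, beside 0.293% of all genes. Reg1 then had a log2 fold change of -6.14 ± 1.81 (SE in the edgeR fit, adjusted p = 0.275).

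**Figure D4:**
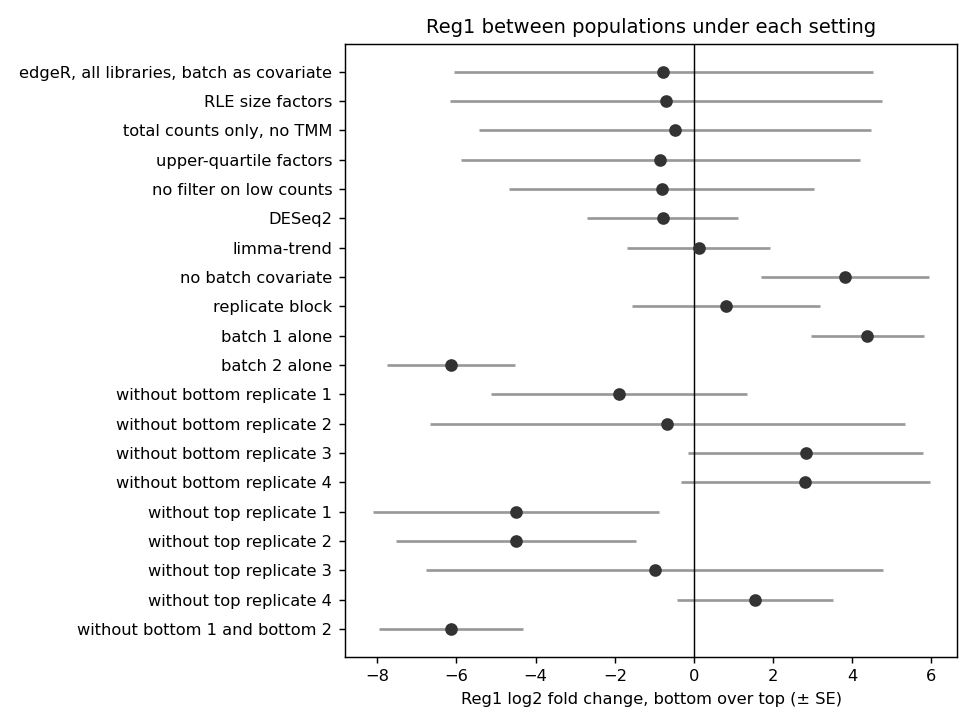
Log2 fold change of Reg1, bottom over top, on the horizontal axis under each setting, with bars for the standard error. The value was -0.77 with all libraries and batch as covariate, 4.38 in batch 1 alone and -6.14 in batch 2 alone, and no setting passed an adjusted p of 0.05.

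Genes of the pathways that act on Reg expression, or through which Reg proteins are proposed to act, were also read. Of 22 genes for Reg receptors and for the interleukin-6, interleukin-17 and interleukin-22 pathways, 16 were tested and 0 called, beside 0.444% of all tested genes. At that share 0 calls are unremarkable for lists of this size. Of the 16, 7 were positive, at a median of -0.04 on the log2 scale. Their sum stood at 394 to 643 CPM in bottom and 549 to 860 CPM in top. Extl3, a proposed Reg receptor, averaged 7.65 CPM in bottom and 11.2 CPM in top (log2 fold change -0.56 ± 0.71 SE in the edgeR fit, adjusted p = 0.878). Stat3 averaged 109 CPM in bottom and 172 CPM in top (log2 fold change -0.62 ± 0.48 SE in the edgeR fit, adjusted p = 0.754), and the kinase Jak1 averaged 152 CPM in bottom and 251 CPM in top (log2 fold change -0.78 ± 0.29 SE in the edgeR fit, adjusted p = 0.371). Lifr, a receptor of the interleukin-6 family, averaged 39.4 CPM in bottom and 83.0 CPM in top (log2 fold change -1.24 ± 0.54 SE in the edgeR fit, adjusted p = 0.476). The interleukin-22 gene Il22 had no count in bottom and stood at 0.144 and 0.377 CPM in top 1 and top 2. Of 20 STAT3 and acute phase targets, 8 were tested and 0 called, again beside 0.444% of all tested genes. Their median was -0.19, with 3 of 8 positive. Socs3, a feedback inhibitor of STAT3, stood at 25.2, 40.6, 0.632 and 3.61 CPM across bottom 1 to bottom 4 and at 10.1, 9.42, 3.46 and 2.54 CPM across top 1 to top 4 (log2 fold change 0.65 ± 0.87 SE in the edgeR fit, adjusted p = 0.887). The metallothionein Mt2 averaged 61.1 CPM in bottom and 165 CPM in top (log2 fold change -1.48 ± 0.33 SE in the edgeR fit, adjusted p = 0.111), and its bottom and top libraries did not overlap. The acute phase genes Saa1, Saa2 and Saa3 were listed at 0 in all libraries.

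Other gut defence genes were mostly below detection at this depth. Of 15 antimicrobial and Paneth cell genes, 8 were listed at 0 in every library, among them Ang4 and Retnlb, and the 1 tested gene was not called. That gene was Pigr, the epithelial transporter of secreted antibodies, at 1443, 312, 45.4 and 31.4 CPM across bottom 1 to bottom 4. Its levels across top 1 to top 4 were 152, 26.2, 21.5 and 44.8 CPM (log2 fold change 1.76 ± 0.88 SE in the edgeR fit, adjusted p = 0.556). Pan-leukocyte genes summed to 10.0 to 30.6 CPM in bottom and 4.9 to 7.05 CPM in top, and duct genes to 834 to 1530 CPM in bottom and 301 to 641 CPM in top. Of 9 duct genes tested, 1 was called, beside 0.444% of all tested genes. That gene was Ambp, a plasma protein precursor, close to the threshold. It averaged 127 CPM in bottom and 15.8 CPM in top (log2 fold change 2.85 ± 0.50 SE in the edgeR fit, adjusted p = 0.0497).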

How the data were processed

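RNA of 8 libraries was measured by sequencing of amplified cDNA (SMARTer Ultra Low kit, Nextera XT), per the labels' protocols. The deposited values were expected counts, estimated per gene with RSEM on the mm9 build, per the submitters' processing notes, which also name edgeR. Which aligner and annotation were used, and in which versions, is not given in the sources used here. RSEM divides reads shared by relatives, and the kit's strand handling is not stated. The series table equalled the per-library tables (largest difference 0). Counts were rounded (34.8% of values were not whole), scaled by TMM and tested with edgeR 4.0.16 (quasi-likelihood, batch as covariate) in R 4.3.3, on the 11721 genes kept by filterByExpr, which hold at least 98% of each library's counts. P-values were Benjamini-Hochberg adjusted over all of them, with calls at 0.05. Log2 fold changes are bottom over top, and SEs come from each fold change and its F statistic. Levels are TMM-scaled CPM. The common biological coefficient of variation was 0.806. The fit was tested on simulated data with a common dispersion for all genes, taken from a fit with the population by batch interaction. It called 0 of 50 genes changed 2-fold, 3 of 48 changed 4-fold and 15 of 44 changed 8-fold. Of 43 genes changed 32-fold it called 42, and there was 1 false call. A gene or list with 0 called may thus still hold changes of several fold. For genes that vary more than the simulated ones, far larger changes may go uncalled. The simulation therefore does not apply to Reg1 and Reg3b, whose log2 fold changes had SEs of 5.28 and 7.38 in the edgeR fit.

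DESeq2 1.42.0, limma 3.58.1, other scalings, no filter, no batch term, a replicate block, single batches and omissions were alternatives. Relations used log2(CPM + 1) and 40320 exact permutations, adjusted over 12, or 576 within batches. The ratio test and the relations were added after the data were seen. Promoters came from RefSeq (GRCm38.p6, another build, matched by symbol) and transcripts from GENCODE vM21, aligned with Biopython 1.88 in place of proteins, which are not analysed here. The members and lists were chosen with earlier results of these data known. Named genes were all members, Cpa1, Prss2 and Fabp2, from each list the called and up to 3 most abundant genes, and the 5 genes most like Reg1 and Reg3b. A called gene of the acinar list is not reported here. Extl3, Il22, Muc2, Tff3, Agr2, Spink3, Prss1, Ptf1a, Ang4, Retnlb and the Saa genes were named after their values were seen.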

Additional observations from a re-analysis of the deposited data

Results flagged for a closer look

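Reg levels set single libraries apart. A library lay far from the other three of its population in 9 of 16 groups checked. The rule marks about 5% of groups by chance where values are independent and evenly spread, but these levels are strongly skewed and 5 of the 9 are the same library, bottom 1, so that share is no yardstick for the count. In bottom 1 this held for Reg3a at 300.4 CPM, Reg3b at 575 CPM, Reg3d at 8.96 CPM, Reg3g at 507 CPM and Reg4 at 461 CPM, each the highest of the bottom libraries. It held in top 1 for Reg3a, at 5.75 CPM, and in top 4 for Reg3g, at 117 CPM. The acinar gene Prss2 was set apart in other libraries, bottom 2 at 155 CPM and top 3 at 47.2 CPM.

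Reg1 was higher in both bottom libraries of batch 1 and lower in both of batch 2 than in the top libraries of the same batch. The interaction was -10.57 on the log2 scale, with an edgeR adjusted p of 0.499. Fabp2 had an interaction of -10.72 beside it.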

How the results depend on the processing

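Over all genes, edgeR called 52, and 204 with no filter on low counts, 32 when the batch was left out of the model, 2 in each batch alone and 8 to 60 with 1 library left out, while DESeq2 called 831 and limma-trend 137. Of the Reg members, 0 were called, but 2 without the filter and 1 by DESeq2. They stayed at 0 in each omission. With the replicate block, made of the batch and the title number, edgeR called 0 genes. Only libraries numbered 1 share such a block, and their deviations had an r of 0.0926 in batch 1 and -0.0013 in batch 2. The sign of Reg1 turned with limma-trend (0.12), with no batch in the model (3.82), the replicate block (0.81), batch 1 alone (4.38), and without bottom 3 (2.82), bottom 4 (2.82) or top 4 (1.55), within -4.50 to 2.82 over the omissions. The sign of Reg3b turned in the same settings, at 0.80, 2.37, 4.13, 4.27, 2.68, 2.68 and 4.25, within -6.29 to 4.25. The cause was not tested. Total-count scaling shifted the median of all genes to 0.34 and turned neither sign. With a pseudocount of 0.1, r was -0.031 for Reg3b with Prss2, and 0.83 for Reg3a with Fabp2 (adjusted exact permutation p = 0.0583). The log2 ratio of Reg1 to Fabp2 differed by 0.05 without bottom 3 and 0.19 without top 3, within -0.62 to 0.19 over the omissions. Levels in bottom 3, bottom 4 and top 3 rest on few counts, where 3 counts correspond to 0.278 to 0.371 CPM.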

Other observations

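A few genes of the cytokine, acute phase and antimicrobial lists, chosen after their values were seen, were highest in bottom 3 and bottom 4, the libraries with the lowest Reg1. The cytokine gene Il6 stood at 0.328, 0.28, 2.74 and 8.25 CPM across bottom 1 to bottom 4 and was listed at 0 in all 4 top libraries. Osmr, the receptor for oncostatin M, stood at 0.328, 2.62, 15.9 and 19.5 CPM across bottom 1 to bottom 4 and at 0.288, 0, 0 and 0 CPM across top 1 to top 4. Lcn2, a STAT3 and NF-kappaB target, stood at 0, 0, 69.6 and 4.63 CPM across bottom 1 to bottom 4 and at 0.144, 0, 0 and 0 CPM across top 1 to top 4. The metalloprotease Mmp7 stood at 0.218, 0, 177 and 11.6 CPM across bottom 1 to bottom 4, and at 0, 0, 0.124 and 0 CPM across top 1 to top 4. None of these 4 genes passed the low-count filter. Other genes of the same lists went the other way. Socs3 stood at 25.2 and 40.6 CPM in bottom 1 and bottom 2 and at 0.632 and 3.61 CPM in bottom 3 and bottom 4, and Steap4, a metalloreductase, peaked in bottom 2 at 22.8 CPM. The duct gene Spp1 stood at 44.8, 70.6, 617 and 342 CPM across bottom 1 to bottom 4 and at 28.5, 49.2, 99.7 and 173 CPM across top 1 to top 4. Other abundant duct genes did not share its order. Across bottom 1 to bottom 4, Epcam stood at 570, 182, 364 and 191 CPM and Tspan8 at 382, 333, 66.8 and 165 CPM. The summed level of the fibroblast list was 4.48, 207, 242 and 830 CPM across bottom 1 to bottom 4 and lay between 0.371 and 16.4 CPM in top, and the part of these cell types in the levels was not tested.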
